A study of Mus musculus with 4 samples.

Results

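The axon guidance genes of the Eph, Slit and netrin systems were followed through single-cell RNA libraries of the dorsal midline of the mouse telencephalon, the tissue around the cortical hem. The members were chosen by symbol: the Eph receptors, the ephrins, the Slits, the Robos, the netrins Ntn1, Ntn3 and Ntn4, the netrin-G genes Ntng1 and Ntng2, and the netrin receptors Dcc, Neo1 and Unc5a to Unc5d. This gave 40 of the 21937 features in the deposited matrices, with 9 EphA and 5 EphB receptors, 5 ephrin-A and 3 ephrin-B ligands, 3 Slits, 4 Robos, 3 netrins, 2 netrin-G genes and 6 netrin receptors. There were 4 libraries, 1 for each genotype at each age: Lmx1aCre::Ai9::b-cat gof (gof below) and Lmx1aCre::Ai9 (control below), each at E11.5 and E14.5. Every library came from 1 pool of male embryos with both hemispheres taken, 5 embryos at E11.5 and 3 at E14.5. Both genotypes carried the Ai9 tdTomato reporter and Lmx1aCre, so tdTomato marks cells in which the Cre acted and the offspring of those cells; Lmx1a is a gene of hem and choroid plexus progenitors. The gof embryos also carried an allele labelled b-cat gof, a gain of function of beta-catenin, the effector of canonical Wnt signalling. The comparisons ask how guidance gene levels differed between gof and control, in reporter cells and in cells with no reporter transcript.

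Ephs are receptor tyrosine kinases whose ligands, the ephrins, sit on the surface of neighbouring cells: ephrin-A proteins are held by a lipid anchor and bind mostly EphA receptors, ephrin-B proteins span the membrane and bind mostly EphB receptors, and signals can pass into both cells. Slits are large secreted proteins that repel growing axons and migrating cells through Robo receptors. Netrin-1 is a secreted cue that attracts through Dcc and repels through Unc5 receptors, and in the developing brain all these systems guide axons, sort cells at boundaries and steer migrating neurons.

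The libraries held 6263 to 8677 barcodes, of which 6991 gof and 6503 control cells were kept at E11.5, and 5258 gof and 6577 control cells at E14.5. Median depth per cell was 5643 unique molecular identifiers (UMIs, counted transcripts) in gof against 8172 in control at E11.5, and 14013 in gof against 12850 in control at E14.5. Reporter cells, with 2 or more tdTomato UMIs, numbered 293 in gof and 554 in control at E11.5, and 1027 in gof and 1104 in control at E14.5. Any pair of libraries shared 12 to 18 barcodes. Among E14.5 reporter cells, a marker gate for Cajal-Retzius neurons, the early Reelin-secreting neurons that arise from the hem, took 2.92% in gof against 31.5% in control. The choroid plexus gate took 4.09% in gof against 9.51% in control, and 34.5% in gof against 6.79% in control passed no gate. At E11.5 the hem progenitor gate took 30% of gof reporter cells against 47.1% of control ones. Among these reporter cells 45.4% in gof against 20.9% in control passed no gate. Non-neural gates (endothelial, mural, mesenchymal or meningeal, macrophage and erythroid) took 22% of the whole E11.5 gof library against 14.4% in control. The part of this E11.5 cell mix in the member differences was not tested. Notum, a Wnt target gene whose enzyme inactivates Wnts, stood in E14.5 reporter cells at 194 CPM in gof against 0.608 CPM in control.

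UMIs were added up within each library or subset and expressed per 1000000 UMIs of that library or subset (CPM), with exact 95% Poisson intervals that cover counting error only. A gene was called higher or lower where it reached 10 CPM in either group, differed at least 1.5-fold after 1 CPM was added to both values, and had intervals that did not overlap. With 1 library per group there is no replicate check and no p-value: each call compares 2 libraries, and the spread between pools is unknown. In such sums alone, fewer cells expressing a gene and less of its RNA per cell cannot be told apart. The share of cells with a UMI, which single-cell counts do hold, is not given here for the members. Between genotypes in whole libraries at E11.5, 0 of the 21 members that passed the filter were higher and 0 lower, against 4.27% of all features higher and 4.12% lower. Between genotypes in E11.5 reporter cells, 3 of the 23 members that passed the filter were higher and 2 lower, against 4.68% of all features higher and 5.59% lower. Whole libraries at E14.5 had more calls: 3 of the 27 members that passed the filter were higher and 5 lower, against 3.13% of all features higher and 8.1% lower. The most calls of these comparisons were in E14.5 reporter cells, where 4 of the 31 members that passed the filter were higher and 12 lower, against 6.86% of all features higher and 16.7% lower. Ntn1, Ephb6 and Unc5a, among the 12, passed the filter only through control and could not have been called higher. The median log2 ratio in E14.5 reporter cells was -0.33 over the members and -0.12 over all features. Among cells with 0 tdTomato UMIs at E11.5, 0 of the 21 members that passed the filter were higher and 2 lower, against 4.33% of all features higher and 3.96% lower. Among cells with 0 tdTomato UMIs at E14.5, 3 of the 27 members that passed the filter were higher and 5 lower, against 2.13% of all features higher and 7.33% lower.

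**Figure D1:**
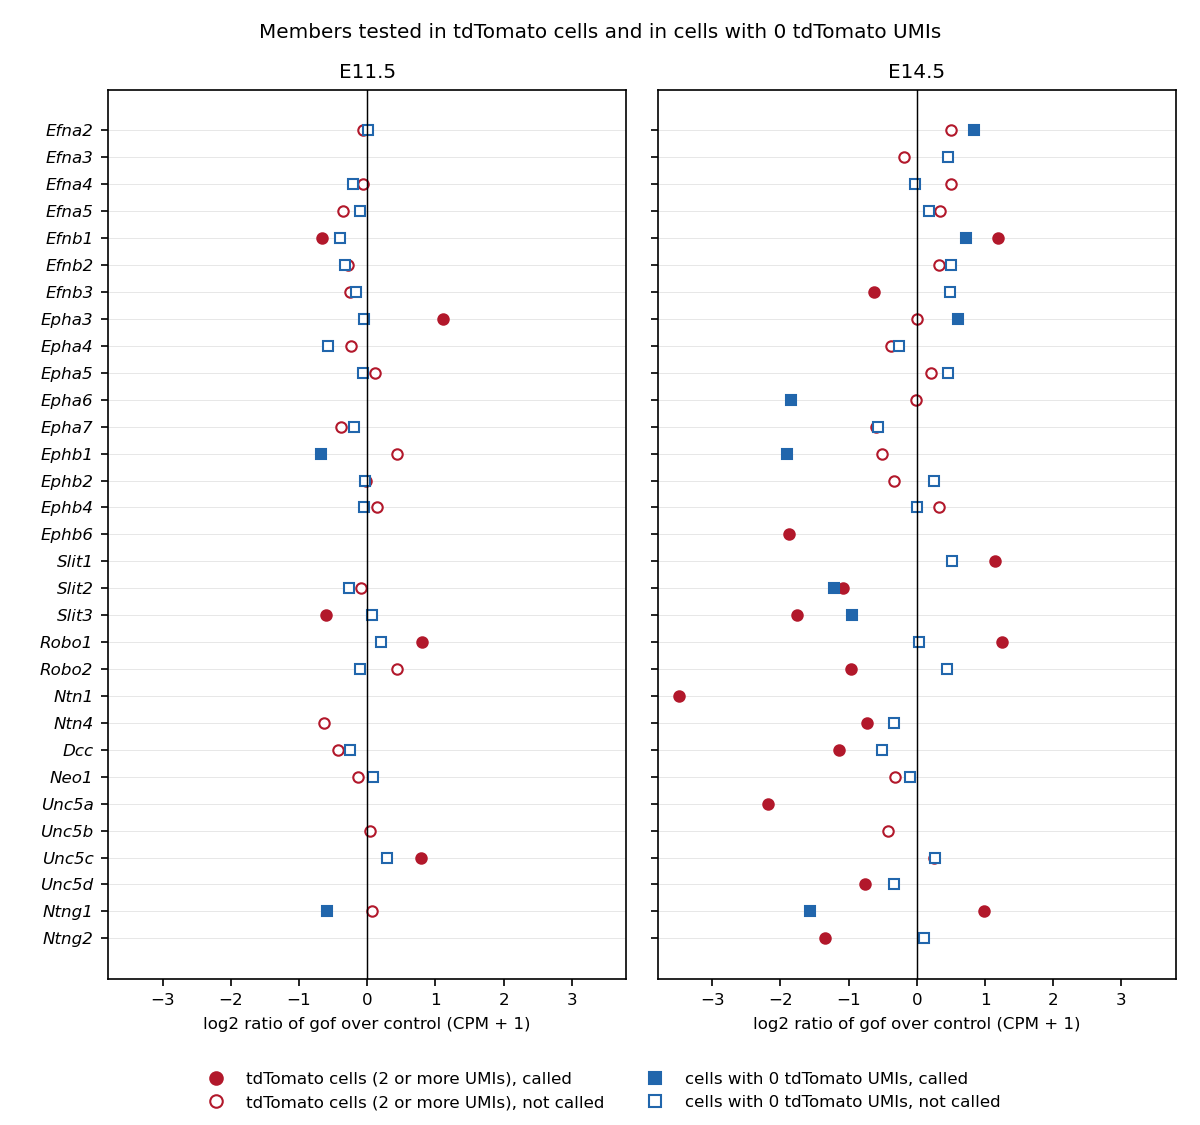
Log2 ratio of gof over control (1 CPM added to both) for each member that passed the 10 CPM filter, at E11.5 (left panel) and E14.5 (right panel), in tdTomato cells (red circles) and in cells with 0 tdTomato UMIs (blue squares); filled symbols are called. At E14.5 Ntng1 was called higher in gof reporter cells (0.98) and lower in gof cells with 0 tdTomato UMIs (-1.56), and Ntn1 in reporter cells lies farthest to the left (-3.49).

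The levels by cell type in the E14.5 control library give the starting point for these differences. Cell types were gated by marker genes, none of which is a member. CPM was not scaled by gene length, so each member was followed across cell types and levels were not compared between members. Slit2 had 797 CPM in choroid plexus cells, 771 CPM in hem progenitors, 670.4 CPM in Cajal-Retzius-gated cells, 624 CPM in pallial progenitors, 605 CPM in intermediate progenitors and 238 CPM in pallial projection neurons. Slit3 had 528 CPM in choroid plexus cells, 402 CPM in projection neurons, 178 CPM in hem progenitors and 4.36 CPM in pallial progenitors. Slit1 had 59.9 CPM in Cajal-Retzius-gated cells and 1.47 CPM in hem progenitors. The Slits thus differed in where they were high. Robo1 was high in projection neurons, with 840.4 CPM against 117 CPM in hem progenitors. Robo2 was high in Cajal-Retzius-gated cells, with 1213 CPM against 31.6 CPM in hem progenitors. Each Robo was therefore lower in control hem progenitors than in the cell type it was set against.

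Ntn1 in the same library had 43.3 CPM in hem progenitors, 17.9 CPM in Cajal-Retzius-gated cells, 15.96 CPM in intermediate progenitors and 2.45 CPM in pallial progenitors. Dcc had 6088 CPM in Cajal-Retzius-gated cells, 3923 CPM in intermediate progenitors, 3517 CPM in hem progenitors and 708 CPM in pallial progenitors. Unc5c, a repulsive netrin receptor, had 174 CPM in Cajal-Retzius-gated cells, 154 CPM in hem progenitors and 2.15 CPM in pallial progenitors. These netrin system genes were all measured in the hem gate, and for Dcc and Unc5c the Cajal-Retzius value was the highest of those given. Epha5 had 1082 CPM in projection neurons, 802 CPM in pallial progenitors and 20.8 CPM in choroid plexus cells. Epha3 had 547 CPM in projection neurons and 39.1 CPM in hem progenitors. Efnb1, an ephrin-B ligand, had 102 CPM in pallial progenitors, 34 CPM in hem progenitors and 4.75 CPM in choroid plexus cells.

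Vessel cells were few. In the endothelial gate of the E11.5 gof library, 115 cells, Robo4, an endothelial Robo, had 35.6 CPM, Ephb4, the venous receptor of ephrin-B2, had 40.7 CPM, and Efnb2 had 88.3 CPM. Over that whole library Robo4 had 1.25 CPM and Ephb4 had 12.1 CPM. The E11.5 control library held 44 such cells, under the 50 that a comparison required. Over whole libraries, Efna5 had 133 CPM in gof against 153 CPM in control at E11.5, and 81.7 CPM in gof against 68.5 CPM in control at E14.5, and Epha5 had 51.7 CPM in gof against 51.6 CPM in control at E11.5, and 986 CPM in gof against 759.6 CPM in control at E14.5. Epha4, a receptor for both ephrin classes, had 81.1 CPM in gof against 121 CPM in control at E11.5, and 368 CPM in gof against 452 CPM in control at E14.5, and Efnb2 had 48.3 CPM in gof against 61.4 CPM in control at E11.5, and 172 CPM in gof against 126 CPM in control at E14.5. Efna1, an ephrin-A ligand, had 3.06 CPM in gof against 1.29 CPM in control at E11.5, and 2.905 CPM in gof against 5.28 CPM in control at E14.5. None of these 5 was called between genotypes in whole libraries.

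**Figure D2:**
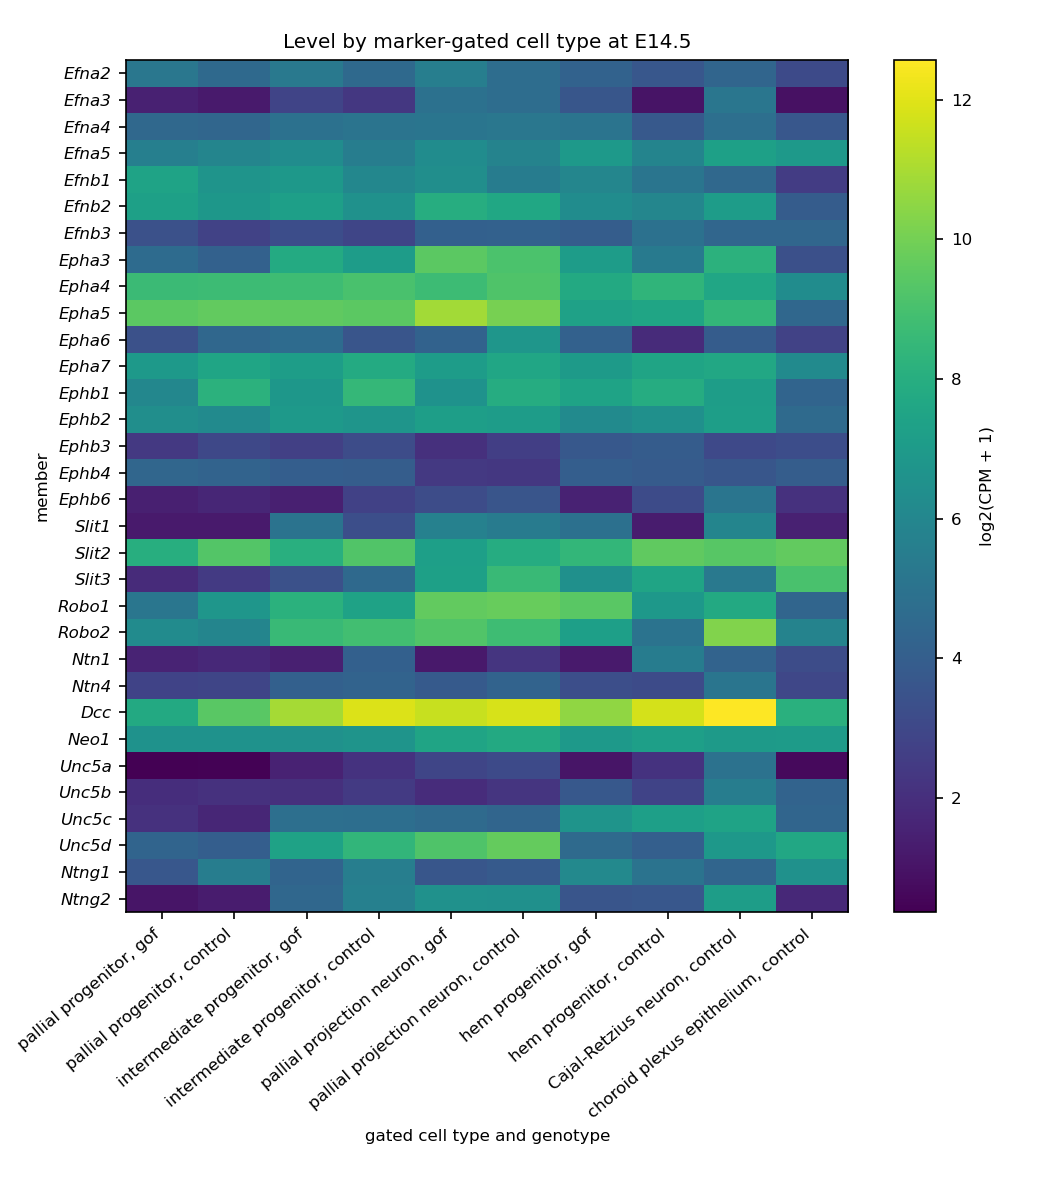
Level of each member that reached 10 CPM in at least 1 column, as log2(CPM + 1) in colour, in marker-gated cell types at E14.5, gof left of control; the Cajal-Retzius and choroid plexus gates are shown for control only, since fewer than 50 gof cells passed them. Dcc has its highest control value in the Cajal-Retzius gate (6088 CPM), Robo2 is low in control hem progenitors (31.6 CPM), and Ntn1 had 1.35 CPM in gof hem progenitors against 43.3 CPM in control ones.

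Most members stood higher at the later age. In the control libraries, comparing E14.5 with E11.5, 19 of the 27 members that passed the filter were higher and 4 lower, against 51.9% of all features higher and 7.79% lower. The median log2 ratio was 1.41 over the members and 0.62 over all features. In the gof libraries, 19 of the 26 members that passed the filter were higher and 2 lower, against 50.7% of all features higher and 8.78% lower. The rises in control were spread over receptors of all systems. Unc5d, a netrin receptor known from migrating cortical neurons, had 304 CPM at E14.5 against 3.55 CPM at E11.5. Ephb1 had 272 CPM at E14.5 against 16.4 CPM at E11.5, and Epha5 had 759.6 CPM at E14.5 against 51.6 CPM at E11.5. The 4 that fell were Efna2, Efna5, Efnb3 and Unc5c, with Efna5 at 68.5 CPM at E14.5 against 153 CPM at E11.5. Within control hem progenitors, 17 of the 27 members that passed the filter were higher and 3 lower, against 47.7% of all features higher and 7.31% lower. Ntn1 was among those higher in this gate, at 43.3 CPM at E14.5 against 0.761 CPM at E11.5. Age and library cannot be told apart here.

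Robo1, Robo2 and Epha3 rose in gof reporter hem progenitors at both ages. This gate held 88 gof and 261 control reporter cells at E11.5, and 190 gof and 234 control reporter cells at E14.5. Robo1, a Slit receptor, had 51.02 CPM (40.1 to 64.1) in gof against 20.3 CPM (16.2 to 25.1) in control at E11.5. At E14.5 it had 727 CPM (699 to 756) in gof against 90.05 CPM (80.2 to 101) in control, a log2 ratio of 3.00 beside 1.29 at E11.5. Robo2, its close relative, had 63.4 CPM in gof against 27.9 CPM in control at E11.5, and 156 CPM in gof against 26.4 CPM in control at E14.5. At each age, both Robos thus lay above control in gof. Epha3, a receptor of ephrin-A5, had 41.4 CPM in gof against 16.7 CPM in control at E11.5, and 141 CPM in gof against 39.02 CPM in control at E14.5. The gof and control intervals of these 3 genes did not overlap at either age. In this gate at E11.5, 3 of the 23 members that passed the filter were higher and 0 lower, against 3.83% of all features higher and 4.45% lower. At E14.5, 12 of the 29 members that passed the filter were higher and 7 lower, against 10.1% of all features higher and 17.3% lower. Efna3, Epha6, Slit1 and Unc5b, among the 12, passed the filter only through gof and could not have been called lower. Ntn1, among the 7, passed it only through control and could not have been called higher.

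Robo1, Robo2 and Epha3 also separated reporter from other hem progenitors within the E11.5 gof library. There Robo1 had 51.02 CPM in tdTomato cells against 18.7 CPM in 0 tdTomato cells, Robo2 had 63.4 CPM in tdTomato cells against 25.4 CPM in 0 tdTomato cells, and Epha3 had 41.4 CPM in tdTomato cells against 14.8 CPM in 0 tdTomato cells. Ephb1 and Unc5c were higher too, so that 5 of the 22 members that passed the filter were higher and 0 lower, against 3.02% of all features higher and 0.862% lower. In the E11.5 control library the same contrast gave no member call: 0 of the 23 members that passed the filter were higher and 0 lower, against 0.951% of all features higher and 0.333% lower. Reporter cells were deeper in both libraries, with a median of 13682 UMIs in tdTomato cells against 7126 in 0 tdTomato cells of gof, and 13949 against 8704 in control. Whether gof and control differ in this contrast was not tested. Between genotypes in E11.5 hem progenitors with 0 tdTomato UMIs, 0 of the 22 members that passed the filter were higher and 2 lower, against 2.47% of all features higher and 3.55% lower; the 2 lower were Ntng1 and Efnb1.

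Markers of hem cells and some neuronal markers moved with the hem comparison. The 7 hem markers, none at 0, summed to 2362 CPM in gof against 6155 CPM in control at E14.5, and to 1846 CPM in gof against 2933 CPM in control at E11.5. Stmn2, a transcript of young neurons, had 203 CPM in gof against 23.4 CPM in control at E14.5, and 65 of 190 gof against 54 of 234 control cells held a Stmn2 UMI. Tubb3, a neuronal tubulin gene, had 922 CPM in gof against 26.1 CPM in control at E14.5, while the 7 pallial projection neuron markers, none at 0, summed to 215 CPM in gof against 294 CPM in control. The 7 Uncx Ebf2 early neuron markers, 1 at 0 in each group, summed there to 287 CPM in gof against 57 CPM in control. Cajal-Retzius markers, 1 of 7 at 0 in gof, summed to 162 CPM in gof against 116 CPM in control. At E11.5 Stmn2 had 13.8 CPM in gof against 7.16 CPM in control, and Tubb3 had 109 CPM in gof against 59.2 CPM in control. Projection neuron markers at E11.5, 2 of 7 at 0 in gof and 1 in control, summed to 105.5 in gof against 114 CPM. The part of Tubb3 and of these markers in the member differences was not tested. The 7 intermediate progenitor markers, 1 of them at 0 in each group, summed to 1005 CPM in gof against 584 CPM in control at E14.5. At E11.5, with 1 at 0 in gof, they summed to 327 CPM in gof against 172 CPM in control. The Robo and Epha3 differences were also measured in cells with 0 Stmn2 UMIs, 72 gof and 238 control cells at E11.5 and 125 gof and 180 control cells at E14.5. There Robo1 had 53.9 CPM in gof against 20.1 CPM in control at E11.5, and 584 CPM in gof against 89.9 CPM in control at E14.5. Robo2 had 139.7 CPM in gof against 25.4 CPM in control at E14.5, and Epha3 had 158 CPM in gof against 41.3 CPM in control. All 3 kept their calls in those cells. Efna5, Efnb1, Epha4 and Epha6 lost their E14.5 calls there; Epha6 had 2.18 CPM in gof against 3.27 CPM in control at E14.5, beside 17.3 CPM in gof against 3.002 CPM in control in the whole gate. In all, 4 of 24 members were higher and 2 lower in these cells at E11.5, against 3.91% of all features higher and 4.54% lower. At E14.5 it was 9 of 28 higher and 8 lower, against 8.5% and 15.7% of all features. Efna3, Slit1 and Unc5b, among the 9, passed the filter only through gof, and Ntn1, among the 8, only through control.

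**Figure D3:**
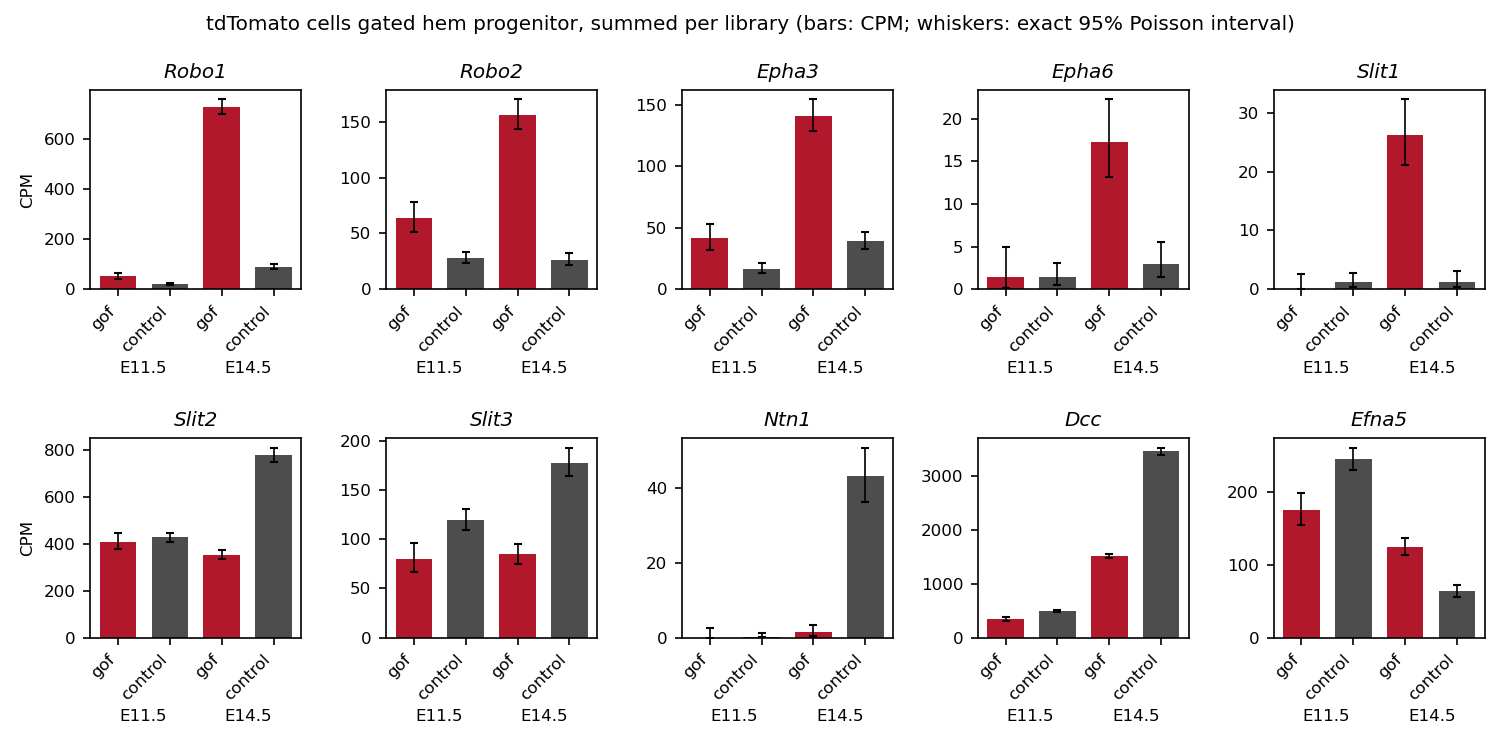
CPM of 10 members in tdTomato cells gated as hem progenitors, summed per library, with gof left of control at E11.5 and at E14.5; whiskers are exact 95% Poisson intervals of the count, and each panel has its own axis from 0. Robo1, Robo2 and Epha3 are higher in gof at both ages, and Ntn1 has 1.46 CPM in gof against 43.2 CPM in control at E14.5.

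Robo1, Robo2 and Epha3 lie on mouse chromosome 16 (GRCm38, GENCODE M21): Epha3 at chr16:63543534-63864175 on the minus strand, Robo1 at chr16:72308306-73046095 on the plus strand and Robo2 at chr16:73891839-74411825 on the minus strand. Epha6 lies at chr16:59653483-60605531 on the minus strand. The stretch from Epha6 to Robo2 holds 19 features of the matrices, 15 of which are no members. In reporter hem progenitors, 8 of those 15 passed the filter at E11.5, with 1 higher and 0 lower in gof, and 10 passed at E14.5, with 0 higher and 2 lower. Of all features, 3.83% were higher and 4.45% lower at E11.5, and 10.1% and 17.3% at E14.5. The 1 higher at E11.5 was Htr1f, between Epha3 and Robo1, with 20 CPM in gof against 9.31 CPM in control. The 2 lower at E14.5 were Cggbp1 and Vgll3. Cadm2, a cell adhesion gene between Epha3 and Robo1, had 41.4 CPM in gof against 27.7 CPM in control at E11.5. At E14.5 it had 161 CPM in gof against 132 CPM in control, and it was called at neither age. The promoters of Robo1, Robo2 and Epha3 are shown because these members moved together at both ages, and beta-catenin acts on DNA through TCF/LEF factors. Each line holds the 250 bases before a RefSeq start on GRCm38.p6, 5′ to 3′ on the gene's strand, with the 40 bases next to the start in capitals. They lie at chr16:72662899-72663148 on the plus strand (Robo1, whose 1 RefSeq start in the table is inside the annotated gene), chr16:74411826-74412075 on the minus strand (Robo2, 1 of 3 starts, the nearest to the annotated gene start) and chr16:63864176-63864425 on the minus strand (Epha3, 1 start).
Robo1: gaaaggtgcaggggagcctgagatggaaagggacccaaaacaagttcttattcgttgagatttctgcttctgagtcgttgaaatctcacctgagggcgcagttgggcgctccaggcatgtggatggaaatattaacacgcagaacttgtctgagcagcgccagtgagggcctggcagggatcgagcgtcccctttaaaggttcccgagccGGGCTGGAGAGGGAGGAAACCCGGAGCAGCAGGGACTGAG
Robo2: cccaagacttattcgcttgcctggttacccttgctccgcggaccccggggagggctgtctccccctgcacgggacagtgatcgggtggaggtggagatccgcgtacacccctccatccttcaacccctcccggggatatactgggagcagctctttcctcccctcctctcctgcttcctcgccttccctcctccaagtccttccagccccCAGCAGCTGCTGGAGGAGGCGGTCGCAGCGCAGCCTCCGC
Epha3: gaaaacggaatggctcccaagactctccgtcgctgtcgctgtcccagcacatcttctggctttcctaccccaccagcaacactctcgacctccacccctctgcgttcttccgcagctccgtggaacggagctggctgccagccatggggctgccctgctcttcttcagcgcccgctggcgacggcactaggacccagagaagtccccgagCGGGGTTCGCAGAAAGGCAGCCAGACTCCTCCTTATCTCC

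The core of the TCF/LEF motif, CTTTGA, was searched on both strands in windows of 300 bases, which run past the start. It was in 16% of 32851 RefSeq promoters and in 2 of the 40 promoters of the 35 members that matched, those of Epha2 and Robo4. The GC box GGGCGG was in 35.7% of all promoters and in 28 of the 40 member promoters. Neither motif was found in the windows of Robo1, Robo2 or Epha3, whose printed bases were 56% (Robo1), 65.6% (Robo2) and 62.8% (Epha3) G or C. Overlaps between the motifs were not counted, and a match or its absence describes only the letters of the window.

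The Slits went in opposite directions at E14.5. In E14.5 reporter cells Slit1 had 63.1 CPM in gof against 28.01 CPM in control (log2 ratio 1.15), Slit2 had 298 CPM in gof against 632 CPM in control (-1.08), and Slit3 had 75.2 CPM in gof against 255 CPM in control (-1.75). In E11.5 reporter cells Slit1 had 2.798 CPM in gof against 1.29 CPM in control, Slit2 had 344 CPM in gof against 368 CPM in control, and Slit3 had 58.5 CPM in gof against 89.7 CPM in control. Only Slit3 was called of these at E11.5, and its call was lost with a pseudocount of 5 CPM, with centred ratios and with other filters and reporter limits. Over whole libraries, Slit1 had 2.902 CPM in gof against 2.001 CPM in control at E11.5, and 31.6 CPM in gof against 17.99 CPM in control at E14.5. Slit2 had 163 CPM in gof against 207 CPM in control at E11.5, and 235 CPM in gof against 522 CPM in control at E14.5. Slit3 had 28.3 CPM in gof against 34.8 CPM in control at E11.5, and 64.98 CPM in gof against 156 CPM in control at E14.5. The whole E14.5 libraries thus went the same way as the reporter cells for each Slit.

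The Slit differences were also seen within gates of E14.5 reporter cells. In hem progenitors, Slit1 had 26.3 CPM in gof against 1.201 CPM in control, where control held 4 UMIs. Slit2 in these cells had 354 CPM in gof against 779.8 CPM in control, and Slit3 had 84.5 CPM in gof against 178 CPM in control. Among hem progenitors with 0 Stmn2 UMIs, Slit1 had 10.9 CPM in gof against 1.64 CPM in control. In reporter cells of the intermediate progenitor gate, 8 of the 29 members that passed the filter were higher and 10 lower. Of all features, 7.58% were higher and 11.7% lower. The gate rests on markers alone, and whether it held the same kinds of cells in both genotypes was not tested. Slit1 there had 101 CPM in gof against 18.1 CPM in control, and Slit2 had 281 CPM in gof against 733 CPM in control. In reporter projection neurons, 8 of the 27 members that passed the filter were higher and 3 lower, against 7.16% of all features higher and 7.8% lower. Slit3 was among the lower ones, with 197 CPM in gof against 608 CPM in control. Across the 4 gates compared in E14.5 reporter cells, Slit2 was lower in 3, and Slit3 was lower in the 3 where it passed the filter.

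Robo1 and Robo2 parted in the sum over all E14.5 reporter cells. Robo1 had 716 CPM in gof against 300.3 CPM in control (log2 ratio 1.25), and Robo2 had 232 CPM in gof against 452 CPM in control (-0.96). In E11.5 reporter cells Robo1 had 71.3 CPM in gof against 40.5 CPM in control, a call lost when cells were thinned to 3000 UMIs, and Robo2 had 73.3 CPM in gof against 54.03 CPM in control. Neither Robo was called over whole libraries: Robo1 had 81.1 CPM in gof against 63.9 CPM in control at E11.5, and 424 CPM in gof against 333 CPM in control at E14.5. Robo2 had 65.7 CPM in gof against 69 CPM in control at E11.5, and 307 CPM in gof against 302 CPM in control at E14.5. The Cajal-Retzius gate, where control Robo2 was high, held 30 of 1027 gof against 348 of 1104 control reporter cells at E14.5. Without that gate and the choroid plexus gate, 6 of 30 members were higher and 11 lower in E14.5 reporter cells, against 7.27% of all features higher and 14.3% lower. In this subset Robo2 had 230.3 CPM in gof against 206 CPM in control and was not called, while Robo1 had 739 CPM in gof against 406 CPM in control. Cells that passed no gate were still 354 of its 955 gof against 75 of its 651 control cells. The part of this mix in the member differences was not tested. Among E14.5 reporter cells that passed no gate, 9 of 30 members were higher and 8 lower, against 9.39% and 20.4% of all features. In reporter intermediate progenitors Robo1 had 1036 CPM in gof against 253 CPM in control, and Robo2 had 256 CPM in gof against 512 CPM in control. The Robos therefore rose together in the hem gate and went opposite ways in the intermediate progenitor gate.

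Ntn1 had the lowest log2 ratio of the members that passed the filter in E14.5 reporter cells, and it passed only through its control value. It had 1.24 CPM (0.793 to 1.84) in gof against 24.2 CPM (22.04 to 26.4) in control, from 24 UMIs in gof and 477 UMIs in control, a log2 ratio of -3.49. In reporter hem progenitors it had 1.46 CPM in gof against 43.2 CPM in control, and in reporter intermediate progenitors 3.02 CPM in gof against 68.3 CPM in control. At E11.5, gof reporter cells held 0 Ntn1 UMIs, and control reporter cells held 0.755 CPM. For the 0, a fixed limit of 3 counts (0.8395 CPM) is given, which is not the exact Poisson interval. Over whole libraries Ntn1 had 1.02 CPM in gof against 1.12 CPM in control at E11.5, and 1.55 CPM in gof against 8.33 CPM in control at E14.5. The Ntn1 level of control reporter hem progenitors at E14.5 was thus not reached in any of the gof values given. Without the Cajal-Retzius and choroid plexus gates, Ntn1 had 1.31 CPM in gof against 29.2 CPM in control in E14.5 reporter cells, so its difference was as large without them.

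Of the other netrins, Ntn4, a netrin of basement membranes, had 6.72 CPM in gof against 11 CPM in control at E11.5, and 10.4 CPM in gof against 17.9 CPM in control at E14.5 in reporter cells. Its E14.5 call was lost with a pseudocount of 5 CPM, and without the Cajal-Retzius and choroid plexus gates, where Ntn4 had 10.7 CPM in gof against 13.02 CPM in control. Over whole libraries Ntn4 had 8.72 CPM in gof against 9.46 CPM in control at E11.5, and 9.801 CPM in gof against 13.7 CPM in control at E14.5. Ntn3 stayed between 2.28 and 3.27 CPM in whole libraries.

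Dcc, the attractive netrin receptor, was lower in gof at E14.5. In reporter cells it had 469 CPM in gof against 634 CPM in control at E11.5, and 1903 CPM in gof against 4199 CPM in control at E14.5. Over whole libraries Dcc had 499 CPM in gof against 620.2 CPM in control at E11.5, and 1537 CPM in gof against 2580 CPM in control at E14.5. In E14.5 reporter hem progenitors Dcc had 1510 CPM in gof against 3461 CPM in control. It was lower in 3 of the 4 gates of E14.5 reporter cells, and without the Cajal-Retzius and choroid plexus gates it had 1921 CPM in gof against 4272 CPM in control. Neo1, its relative that also binds repulsive guidance molecules, had 122 CPM in gof against 152 CPM in control in E14.5 reporter cells and was not called.

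The Unc5 receptors had no common direction. In reporter cells Unc5c had 152 CPM in gof against 87.99 CPM in control at E11.5, and 128 CPM in gof against 107 CPM in control at E14.5. By gate at E14.5, Unc5c had 107 CPM in gof against 162 CPM in control in reporter hem progenitors, and 146 CPM in gof against 51.5 CPM in control in reporter projection neurons. Unc5c was thus lower in the hem gate and higher in the projection neuron gate. Over whole libraries Unc5c had 88.8 CPM in gof against 69.8 CPM in control at E11.5, and 40.5 CPM in gof against 31.01 CPM in control at E14.5. In reporter cells Unc5d had 6.995 CPM in gof against 4.31 CPM in control at E11.5, and 90.1 CPM in gof against 153 CPM in control at E14.5. Over whole libraries Unc5d had 3.31 CPM in gof against 3.55 CPM in control at E11.5, and 219 CPM in gof against 304 CPM in control at E14.5. Unc5d was called in reporter cells and not in whole libraries. In reporter cells Unc5a had 0.8395 CPM in gof against 0.216 CPM in control at E11.5, and 1.701 CPM in gof against 11.2 CPM in control at E14.5. Over whole libraries Unc5a had 0.838 CPM in gof against 0.515 CPM in control at E11.5, and 2.56 CPM in gof against 5.096 CPM in control at E14.5. In control Cajal-Retzius-gated cells Unc5a stood at 29.7 CPM, and without that gate and the choroid plexus gate it had 1.597 CPM in gof against 5.41 CPM in control, which is under the filter. Unc5b had 12.6 CPM in gof against 5.403 CPM in control in E14.5 reporter hem progenitors, and 13.5 CPM in gof against 18.4 CPM in control over all E14.5 reporter cells. Without the Cajal-Retzius and choroid plexus gates the difference over reporter cells turned round for Unc5b, which had 10.7 CPM in gof against 6.26 CPM in control, called higher.

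**Figure D4:**
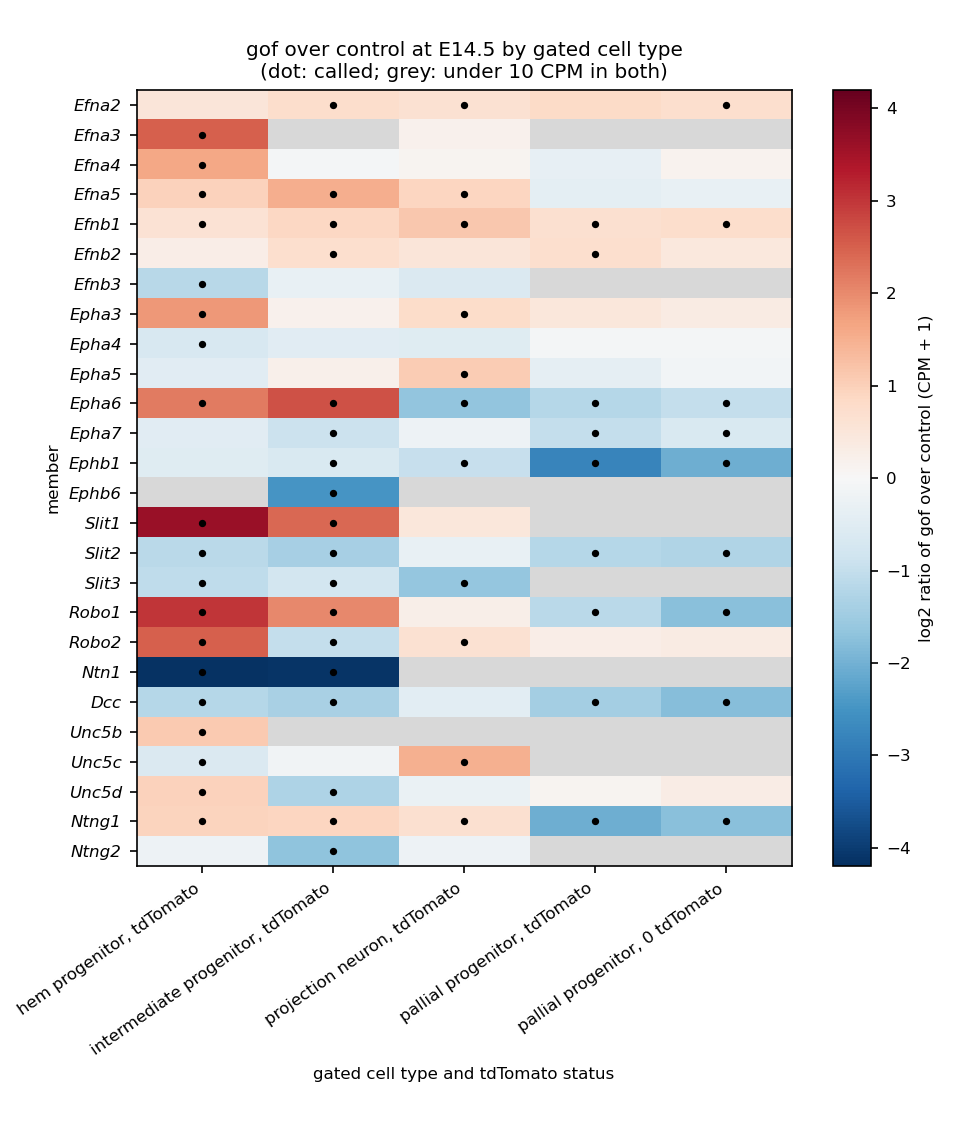
Log2 ratio of gof over control at E14.5 (colour, 1 CPM added to both) in 5 gated subsets: tdTomato hem progenitors, intermediate progenitors, projection neurons and pallial progenitors, and pallial progenitors with 0 tdTomato UMIs. Dots mark calls and grey marks members under 10 CPM in both groups; Robo1 runs from 3.00 in reporter hem progenitors to -1.77 in pallial progenitors with 0 tdTomato UMIs, and Efnb1 is called higher in all 5 columns.

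Among the ephrin ligands, 3 of the 4 ephrin-A genes that passed the filter in E14.5 reporter hem progenitors were higher in gof and 0 lower, against 10.1% of all features higher and 17.3% lower. Efna3 had 11.4 CPM in gof against 1.201 CPM in control. It passed the filter only through its gof value, so the count of 3 holds a gene that could not have been called lower. Efna4 had 33.4 CPM in gof against 10.2 CPM in control, close to the filter. Efna5, a ligand of Epha3 known from topographic maps, had 125 CPM in gof against 63.3 CPM in control. In hem progenitors with 0 Stmn2 UMIs Efna5 had 87.9 CPM in gof against 61.7 CPM in control and was not called. Efna5 was higher in 3 of the 4 gates of E14.5 reporter cells, the whole hem gate among them, and without the Cajal-Retzius and choroid plexus gates it had 130.2 CPM in gof against 69.1 CPM in control over reporter cells, called higher. Over whole libraries Efna2 had 39.97 CPM in gof against 39.4 CPM in control at E11.5, and 36.5 CPM in gof against 21.4 CPM in control at E14.5. In reporter cells Efna2 had 33.02 CPM in gof against 34.4 CPM in control at E11.5, and 24.8 CPM in gof against 17.3 CPM in control at E14.5 and was not called.

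Efnb1, an X-linked ephrin-B gene, was called in opposite directions at the 2 ages in reporter cells, with 27.4 CPM in gof against 44.1 CPM in control at E11.5, and 75.4 CPM in gof against 32.4 CPM in control at E14.5. The E11.5 call was lost with centred ratios, without doublet removal and in thinned cells, and the difference between ages was not tested. Over whole libraries Efnb1 had 41.6 CPM in gof against 55.6 CPM in control at E11.5, and 116 CPM in gof against 65.2 CPM in control at E14.5. At E14.5 it was higher in all 4 gates of reporter cells, but in hem progenitors with 0 Stmn2 UMIs Efnb1 had 53.97 CPM in gof against 37.2 CPM in control and was not called. Pallial progenitors with 0 tdTomato UMIs had 171 CPM in gof against 103 CPM in control, so the rise was seen outside reporter cells too. Efnb3, another ephrin-B ligand, had 21.8 CPM in gof against 26.1 CPM in control at E11.5, and 13.3 CPM in gof against 21.3 CPM in control at E14.5 in reporter cells. Its E14.5 call was lost with a pseudocount of 5 CPM, with centred ratios, without doublet removal and with 1 tdTomato UMI as the limit. Over whole libraries Efnb3 had 17.2 CPM in gof against 20.1 CPM in control at E11.5, and 12.97 CPM in gof against 11.9 CPM in control at E14.5.

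Of the Eph receptors, Epha3 rose in E11.5 reporter cells and Ephb1 and Epha6 fell in E14.5 whole libraries. In reporter cells Epha3 had 42.8 CPM in gof against 19.3 CPM in control at E11.5, and 139.7 CPM in gof against 139.7 CPM in control at E14.5. Over whole libraries Epha3 had 32.5 CPM in gof against 29.6 CPM in control at E11.5, and 282 CPM in gof against 203 CPM in control at E14.5. The hem gate rise of Epha3 at E14.5 was thus not seen in the sum over reporter cells. In reporter cells Ephb1, known from axon choice at the optic chiasm, had 32.2 CPM in gof against 23.6 CPM in control at E11.5, and 155 CPM in gof against 221 CPM in control at E14.5. Over whole libraries Ephb1 had 11.1 CPM in gof against 16.4 CPM in control at E11.5, and 94 CPM in gof against 272 CPM in control at E14.5. Without the Cajal-Retzius and choroid plexus gates, Ephb1 had 159.8 CPM in gof against 309.6 CPM in control in E14.5 reporter cells and was called lower. Another gene overlaps Ephb1 on the other strand. In reporter cells Epha6 had 6.995 CPM in gof against 1.62 CPM in control at E11.5, and 46.4 CPM in gof against 46.6 CPM in control at E14.5. Without the Cajal-Retzius and choroid plexus gates, Epha6 had 43.6 CPM in gof against 71.1 CPM in control in E14.5 reporter cells and was called lower. Over whole libraries Epha6 had 6.58 CPM in gof against 2.69 CPM in control at E11.5, and 19.96 CPM in gof against 44.02 CPM in control at E14.5. Its direction differed by gate at E14.5: reporter intermediate progenitors had 75.99 CPM in gof against 11.1 CPM in control, and reporter projection neurons had 65.5 CPM in gof against 210.4 CPM in control.

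Epha7 and Ephb6 were lower in E14.5 reporter cells. In reporter cells Epha7 had 69.7 CPM in gof against 90.9 CPM in control at E11.5, and 119 CPM in gof against 181 CPM in control at E14.5. The Epha7 call was lost with a pseudocount of 5 CPM, with centred ratios and in thinned cells. Over whole libraries Epha7 had 85.5 CPM in gof against 97.4 CPM in control at E11.5, and 128 CPM in gof against 191 CPM in control at E14.5. Ephb6, an Eph receptor without kinase activity, had 4.197 CPM in gof against 2.48 CPM in control at E11.5, and 3.196 CPM in gof against 14.4 CPM in control at E14.5 in reporter cells. Over whole libraries Ephb6 had 2.41 CPM in gof against 1.898 CPM in control at E11.5, and 3.91 CPM in gof against 7.59 CPM in control at E14.5. In control Cajal-Retzius-gated cells it stood at 33.7 CPM, and without that gate and the choroid plexus gate it had 3.31 CPM in gof against 8.29 CPM in control in E14.5 reporter cells, under the filter.

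The netrin-G genes differed from each other and by reporter status. Ntng1, a membrane-bound netrin relative, had 19.03 CPM in gof against 18.1 CPM in control at E11.5, and 77.7 CPM in gof against 38.95 CPM in control at E14.5 in reporter cells; the call was lost with 1 tdTomato UMI as the limit. In cells with 0 tdTomato UMIs Ntng1 had 10.7 CPM in gof against 16.7 CPM in control at E11.5, and 12.04 CPM in gof against 37.5 CPM in control at E14.5. Ntng1 was thus higher in gof reporter cells and lower in the other gof cells at E14.5. Over whole libraries Ntng1 had 11.4 CPM in gof against 16.6 CPM in control at E11.5, and 27.8 CPM in gof against 38.01 CPM in control at E14.5. By gate, Ntng1 was higher in 3 gates of E14.5 reporter cells and lower in reporter pallial progenitors, where it had 14.8 CPM in gof against 63.8 CPM in control. In reporter cells Ntng2 had 3.08 CPM in gof against 1.83 CPM in control at E11.5, and 24.8 CPM in gof against 64.3 CPM in control at E14.5. Ntng2 stood at 144 CPM in control Cajal-Retzius-gated cells. Without that gate and the choroid plexus gate it had 23.3 CPM in gof against 43.96 CPM in control in E14.5 reporter cells and was still lower. Over whole libraries Ntng2 had 2.68 CPM in gof against 2.09 CPM in control at E11.5, and 35.04 CPM in gof against 43.4 CPM in control at E14.5.

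Members also differed in pallial progenitors with no reporter transcript. In E14.5 pallial progenitors with 0 tdTomato UMIs, 1237 gof and 1727 control cells, 2 of the 20 members that passed the filter were higher and 7 lower, against 2.4% of all features higher and 9.08% lower. Ephb1 had 67.1 CPM in gof against 282 CPM in control, and Dcc had 194 CPM in gof against 668 CPM in control. Slit2 had 253 CPM in gof against 609.8 CPM in control, and Robo1 had 29.7 CPM in gof against 103 CPM in control. Robo1 was thus lower in these cells and higher in gof reporter hem progenitors. Ntng1, Epha6 and Epha7 were lower too, and Efna2 and Efnb1 higher. In reporter pallial progenitors, 113 gof and 65 control cells, 2 of the 21 members that passed the filter were higher and 7 lower, against 3.23% of all features higher and 8.23% lower. Robo1 there had 92.3 CPM in gof against 202 CPM in control, and Ephb1 had 54.4 CPM in gof against 378 CPM in control. Over all E14.5 cells with 0 tdTomato UMIs, the members lower in gof were Ephb1, Epha6, Ntng1, Slit2 and Slit3, and those higher were Efna2, Efnb1 and Epha3. A cell with 0 tdTomato UMIs may still carry the recombined reporter, and the part of such cells in these values was not tested.

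Reporter status went with member levels within each library. In tdTomato against 0 tdTomato cells of the E11.5 gof library, 7 of the 22 members that passed the filter were higher and 1 lower, against 9.57% of all features higher and 4.19% lower. In the E11.5 control library, 4 of the 23 members that passed the filter were higher and 2 lower, against 6.25% of all features higher and 2.47% lower. In the E14.5 gof library, 8 of the 28 members that passed the filter were higher and 9 lower, against 12.2% of all features higher and 6% lower. In the E14.5 control library, 13 of the 31 members that passed the filter were higher and 5 lower, against 13.6% of all features higher and 5.29% lower. Slit2 had 344 CPM in tdTomato cells against 139 CPM in 0 tdTomato cells of the E11.5 gof library, and 368 CPM in tdTomato cells against 168 CPM in 0 tdTomato cells of the E11.5 control library. Unc5c had 128 CPM in tdTomato cells against 11.7 CPM in 0 tdTomato cells of the E14.5 gof library, and 107 CPM in tdTomato cells against 9.49 CPM in 0 tdTomato cells of the E14.5 control library. These genes were thus higher in tdTomato cells of both genotypes at the ages given. Robo2 had 232 CPM in tdTomato cells against 355 CPM in 0 tdTomato cells of the E14.5 gof library, and 452 CPM in tdTomato cells against 262 CPM in 0 tdTomato cells of the E14.5 control library.

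A list of 46 partner genes, which act with these ligands and receptors, gave 0 of 40 higher and 3 lower in E11.5 reporter cells, against 4.68% of all features higher and 5.59% lower. In E14.5 reporter cells it gave 5 of 44 higher and 12 lower, against 6.86% and 16.7% of all features, with a median log2 ratio of -0.20, against -0.12 for all features. Among those higher at E14.5, Vav3, which acts downstream of Ephs, had 69.95 CPM in gof against 17.4 CPM in control. Adam10, a protease that cleaves ephrins, had 196 CPM in gof against 97 CPM in control, Vav2, a relative of Vav3, had 30.5 CPM in gof against 18.4 CPM in control, and Sipa1l1 had 167 CPM in gof against 104 CPM in control. The lowest ratios of the list were those of Dscaml1, Ablim1, Chn2 and Draxin. Dscaml1 had 25.5 CPM in gof against 86.3 CPM in control, and Ablim1, an actin-binding protein, had 21.96 CPM in gof against 64.4 CPM in control. Draxin, a secreted protein that binds netrin-1 and Dcc, had 88.6 CPM in gof against 192 CPM in control, and Chn2, a Rac-regulating chimaerin, had 55.7 CPM in gof against 149 CPM in control. Partners therefore moved in both directions at E14.5. At E11.5 the 3 lower were Rgma, a ligand of Neo1, with 42.5 CPM in gof against 78.8 CPM in control, Lrrc4c, which binds Ntng1, with 38.3 CPM in gof against 67.3 CPM in control, and Srgap3, a Slit and Robo pathway GTPase-activating protein, with 54.6 CPM in gof against 86.7 CPM in control.

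Of the 40 members, 27 reached 10 CPM in at least 1 whole library and 13 did not (Efna1, Epha1, Epha10, Epha2, Epha8, Ephb3, Ephb6, Ntn1, Ntn3, Robo3, Robo4, Unc5a and Unc5b), and all 40 had a UMI in each library. Epha8 stayed under 1 CPM in every library, between 0.368 and 0.903 CPM. All 40 matched the annotation by gene ID. Tbc1d24 overlaps Ntn3 on the same strand, and other genes overlap Epha1, Ephb1, Ephb4 and Unc5a on the other strand.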

How the data were processed

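Libraries used 10x Chromium 3' v3.1 chemistry, per the labels' protocols. The authors deposited raw UMI counts per gene and barcode, from Cell Ranger 7.1.0 and mm10, per the submitters' processing notes and the file headers. The sources used here do not say whether intronic reads were counted. Groups came from the labels, 1 library each; the titles shorten the ages to E11 and E14.

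Cells needed at least 1000 genes and no more than 10% mitochondrial UMIs; 616 to 1084 barcodes per library failed. Scrublet's own threshold marked 2 barcodes in each E11.5 library and so had not worked there; in every library the highest scores were removed instead, at 0.8% per 1000 barcodes (314 to 602). Library totals before filtering ran from 59594082 to 113821989 UMIs. Cells with 1 tdTomato UMI entered neither reporter set. A cell passed a gate when 3 to 5 of up to 7 markers had a UMI; the gate limits were set after marker detection was seen, and the names are not the authors' annotation. Ambient RNA was not removed. Members were also counted in the E11.5 erythroid gate, where Dcc had 46.6 CPM in gof against 193 CPM in control. Slit2 there had 20.9 CPM in gof against 71.02 CPM in control. In that gate 0 of 15 members were higher in gof and 14 lower, against 1.04% of all features higher and 57.6% lower. The part of ambient RNA in the member values was not tested. Sums, CPM, Poisson intervals and log2 ratios (pseudocount 1 CPM) were computed with Python 3.11.15, scanpy 1.11.5 and scipy 1.17.1, and the call was tested on simulated data. A class needed 50 cells in each library.

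The members, partner genes and markers were chosen with earlier results of these data known. The members called between genotypes in whole libraries or reporter cells and the 3 members with the most UMIs in each gate are named with all 4 libraries; partner genes called in reporter cells are named, up to 4 in each direction by log2 ratio. Other members were named as examples after their values were seen. The alternatives changed the pseudocount, filters, scaling, depth, fold limit, reporter limit and gates.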

Additional observations from a re-analysis of the deposited data

Results flagged for a closer look

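Some members were called in opposite directions between gof and control in different ages, reporter sets or gates, as log2 ratios of gof over control; none of these differences was tested, since each group holds 1 library. In reporter cells Efnb1 had -0.67 at E11.5 and 1.19 at E14.5. At E14.5 Ntng1 had 0.98 in reporter cells and -1.56 in cells with 0 tdTomato UMIs. Within gates of E14.5 reporter cells, Epha6 had 2.19 in hem progenitors, 2.67 in intermediate progenitors, -1.67 in projection neurons and -1.20 in pallial progenitors. In hem progenitors with 0 Stmn2 UMIs Epha6 had -0.43, was under the filter and was not called. Ntng1 had 0.94 in hem progenitors, 0.90 in intermediate progenitors, 0.66 in projection neurons and -2.04 in pallial progenitors. Robo1 had 3.00 in hem progenitors, 2.03 in intermediate progenitors and -1.12 in pallial progenitors. Robo2 had 2.52 in hem progenitors, -1.0 in intermediate progenitors and 0.63 in projection neurons. Unc5c had -0.60 in hem progenitors and 1.49 in projection neurons. Unc5d had 0.96 in hem progenitors and -1.29 in intermediate progenitors.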

How the results depend on the processing

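Of 29 member calls between genotypes in whole libraries and reporter cells at both ages, 10 held under every alternative run, and 19 under every one other than the 50 CPM and 2-fold limits. Without the Cajal-Retzius and choroid plexus gates, 4 of 16 calls in E14.5 reporter cells were lost (Ephb6, Ntn4, Robo2 and Unc5a). Calls gained there were those of Efna5 and Unc5b, higher, and of Epha4, Epha6 and Ephb1, lower. Epha4 had 252 CPM in gof against 427 CPM in control in that subset. The log2 ratio of Robo2 changed sign to 0.16, and no other of the 29 calls changed sign in any alternative. Outside those 29, Epha6 in E14.5 reporter hem progenitors changed sign, from 2.19 to -0.43 in cells with 0 Stmn2 UMIs. Whole libraries at E11.5 had 4 members higher with no filter on low values and 1 lower in cells thinned to 3000 UMIs. Whole libraries at E14.5 had 1 higher at 50 CPM, 0 higher at the 2-fold limit, and 5 higher and 9 lower with no filter. E11.5 reporter cells had 5 higher with no filter, 1 higher at the 2-fold limit, and 5 higher with 3 or more tdTomato UMIs. They had 1 lower each with a pseudocount of 5 CPM, the 50 CPM limit, stricter cell filters (2000 genes, 5% mitochondrial UMIs), no doublet removal, thinned cells, and 1 or more tdTomato UMIs, and 0 lower with centred ratios or the 2-fold limit. E14.5 reporter cells had 7 higher with no filter, 7 lower at 50 CPM and 7 lower at the 2-fold limit. In tdTomato against 0 tdTomato cells, thinning gave 2 lower in the E11.5 gof and 5 lower in the E11.5 control library. The cause was not tested, other than that a higher limit leaves fewer genes. Subsets without Stmn2, or without the Cajal-Retzius and choroid plexus gates, were chosen after seeing the data.

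No paired analysis was possible because each group holds 1 library. Genotype, pool and library preparation cannot be told apart. The 293 reporter cells of the E11.5 gof library set how low a transcript was countable there.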
